A study of Rattus norvegicus with 6 samples.

Results

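The glycolysis and lactate genes described here are 5 of the 20174 rat genes with a probe on the arrays: Slc2a1 (ENSRNOG00000007284), Gapdh (ENSRNOG00000018630), Pkm (ENSRNOG00000011329), Ldha (ENSRNOG00000013009) and Ldhb (ENSRNOG00000013000). The list gives them by identifier and was drawn up with earlier results of these data known, and each has 1 probe. The array files carry Ensembl identifiers only, with no gene position. The symbols came with the list of genes and could not be checked against the reference gene table, which holds 0 Ensembl identifiers. Total RNA came from cultured rat oligodendrocyte precursors, the dividing glial cells from which myelin-forming oligodendrocytes arise. The day 0 group (3 arrays) was RNA from precursors in Raff medium before differentiation, and the day 3 group (3 arrays) was RNA from the same kind of culture after a change of growth factors had let the cells differentiate. The labels file both groups under "cit induced switching", as control condition at day 0 and differentiated condition at day 3. What "cit" stands for was not determined here. Beyond that label no genotype, transgene or drug is named for either group. The sources used here state neither strain nor age nor how pure the cultures were. Titles number 2 arrays of each group, and the remaining array of each is called unnumbered. Values of single arrays follow the order number 1, number 2, unnumbered.

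Glucose enters brain cells through transporters that include GLUT1, encoded by Slc2a1. Glycolysis then turns it into pyruvate: glyceraldehyde-3-phosphate dehydrogenase (Gapdh) makes NADH midway, and pyruvate kinase (Pkm) carries out the last step. Lactate dehydrogenase interconverts pyruvate and lactate as a tetramer of A subunits (Ldha) and B subunits (Ldhb). In the nervous system oligodendrocytes are known to pass lactate to axons, and differentiating cells use glucose carbon for myelin lipids. Gapdh is also a common reference gene for expression measurements, which makes its own level in these cultures of practical interest.

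On normalised values Slc2a1 and Pkm were the members whose day 0 and day 3 arrays did not overlap, in opposite directions. Of all probes tested, 10.2% were apart and higher at day 3 on these values and 9.1% apart and lower. On spot signals as deposited Ldha was just apart as well, and lower. The share of all probes apart on spot signals was not computed, and day 3 arrays were dimmer as a whole, so that carries little weight. Several genes of glucose use, Ldha and Slc2a1 among them, are textbook targets of the hypoxia-inducible factor HIF-1, whose activity was not tested here. The promoter windows of the 3 genes with groups apart on either scale are shown, with the HIF core motif in capitals. Each runs from 250 bases before to 50 bases after the RefSeq start site on GRCr8 and was matched by symbol. Capitals mark ACGTG or GCGTG on either strand, and neighbouring matches may overlap.

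Slc2a1, chr5:138002272-138002571, plus strand: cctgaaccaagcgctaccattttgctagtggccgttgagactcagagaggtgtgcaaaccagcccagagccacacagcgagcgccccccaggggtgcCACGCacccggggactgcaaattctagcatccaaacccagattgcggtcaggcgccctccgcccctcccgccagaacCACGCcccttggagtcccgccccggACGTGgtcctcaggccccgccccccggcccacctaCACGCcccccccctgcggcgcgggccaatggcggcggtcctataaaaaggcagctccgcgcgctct

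Ldha, chr1:106507842-106508141, plus strand: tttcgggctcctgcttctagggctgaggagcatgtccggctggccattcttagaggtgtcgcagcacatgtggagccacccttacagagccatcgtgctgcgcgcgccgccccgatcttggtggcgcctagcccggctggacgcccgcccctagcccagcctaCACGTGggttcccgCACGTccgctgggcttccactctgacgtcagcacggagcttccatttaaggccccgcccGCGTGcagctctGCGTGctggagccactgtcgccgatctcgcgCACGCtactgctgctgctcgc

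Pkm, chr8:68953385-68953684, plus strand: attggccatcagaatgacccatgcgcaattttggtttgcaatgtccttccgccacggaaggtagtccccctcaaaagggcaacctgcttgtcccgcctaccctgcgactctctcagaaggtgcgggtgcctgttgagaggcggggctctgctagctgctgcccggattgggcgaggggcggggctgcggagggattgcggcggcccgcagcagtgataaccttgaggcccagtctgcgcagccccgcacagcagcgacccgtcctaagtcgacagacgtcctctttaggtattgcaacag

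The Ldha window held 6 matches of this core, Slc2a1 held 4, Gapdh 3, Ldhb 1 and Pkm 0. Of 33469 rat promoter windows of the same length, 41.6% held at least 1 match, 3.46% at least 4 and 0.630% at least 6. The leftmost base of the single E-box (CACGTG) of Ldha lay 87 bases before the start site and overlapped 2 of its core matches, and 6.42% of all windows hold an E-box. The GC box GGGCGG was found 3 times each in Slc2a1 and Ldha, once each in Pkm and Ldhb and 0 times in Gapdh, against 33.1% of all windows with at least 1. A TATAAA match began 26 bases before the start site of Gapdh and at base 25 after the start site of Slc2a1, and 14.2% of all windows hold one. These are matches of letters and were not tested as binding sites. Bases outside the windows were not searched, so a window with 0 matches says nothing about the rest of the gene.

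Blank spots had medians of 12.4 to 15.3 scanner units per array, and the detection limit, set from them, lay between 13.9 and 16.9. The brightest gene spot of each array read 43395 to 58316. All 5 members were above the limit on all 6 arrays, by 21.8 times at the least (Slc2a1, unnumbered day 0 array) and by 1275 times at the most (Gapdh, day 0 number 1). No spot of a member carried a warning flag at any of the 3 scanner gains. Day 3 arrays were dimmer as a whole, with median gene signals of 26.4 to 35.8 against 31.7 to 38.9 at day 0. Spot signals as deposited are therefore given first and compared on normalised values afterwards. The normalised value is log2 of the spot signal plus 50, quantile normalised between arrays, and a difference on it understates the change of dim probes.

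Slc2a1, the glucose transporter gene, was the member with the clearest difference and was higher at day 3. Its spot signal was 425, 431 and 368 at day 0. At day 3 it reached 1184, 674 and 974. Every day 3 array was above every day 0 array, and the day 3 arrays spread more widely (408 ± 35.0 against 944 ± 256, SD, n = 3 each). In the submitters' own scaled values, where the median listed probe of each array is 25, the level went from 211 ± 25.8 to 624 ± 162 (SD, n = 3 each).

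**Figure D1:**
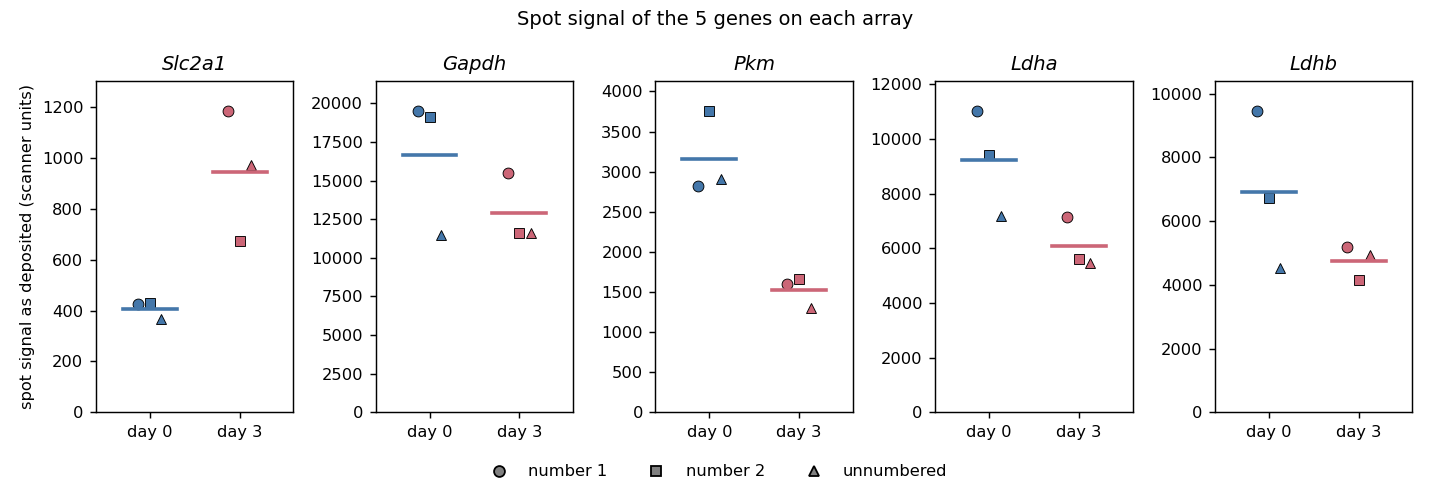
Spot signal as deposited (scanner units, axis from 0, one axis per gene) of the 5 genes at day 0 (blue) and day 3 (red), with 1 point per array, its shape giving the title number, and a line at the group mean of 3 arrays. Slc2a1 lies higher on all day 3 arrays (674 to 1184) than on all day 0 arrays (368 to 431), and Pkm lies lower (1300 to 1657 against 2826 to 3754).

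On normalised values Slc2a1 rose 2.55-fold, a log2 difference of 1.35 (SE 0.16, 95% interval 0.93 to 1.77), with an adjusted p of 0.0447 (limma). The call was close to the threshold of 0.05. With the pairs of arrays as a replicate block the difference was the same and the call was lost (adjusted p = 0.0882, limma). It was also lost without any single array: the adjusted p became 0.178, 0.152 or 0.130 when one day 0 array was dropped, in the order above, and 0.0572, 0.0575 or 0.167 when one day 3 array was (limma), with differences of 1.20 to 1.50. Over 21 alternatives the difference stayed between 1.09 and 1.90 and the adjusted p ran from 0.0216 to 0.407 (limma), with 5 of them making the call. Within title styles it was 1.31 in the numbered arrays and 1.43 in the unnumbered pair, and all 3 pairs showed the rise, by 1.68, 0.94 and 1.43. In RNA of a whole culture, a change in the share of cells of a type and a change in RNA per cell cannot be told apart.

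Of the 5 members, 1 was called higher at day 3, beside 112 of 15445 probes tested (0.725%). No member was called lower, beside 49 probes (0.317%, limma). In either direction, 2 members (Slc2a1 and Pkm) had an unadjusted limma p under 0.05, as did 2032 of all probes (13.2%). Without any scaling between arrays 72 probes were called higher and 87 lower. Non-overlapping groups are far less selective: 10.2% of probes tested lay higher on all day 3 arrays and 9.1% lower, so that 1 of 5 members in each direction (Slc2a1 and Pkm) carries little weight by itself. The median difference was 0.01 for the 5 members and -0.0042 for all probes tested. Quantile normalisation largely sets the value for all probes (-0.097 with no scaling), so it is no reference for the members. By size of its signed difference Slc2a1 stood at the 99.2nd percentile of all probes, Gapdh at 88.6, Ldhb at 58.2, Ldha at 26.7 and Pkm at 2.06. The residual SD between arrays of a group was 0.30 for Pkm and 0.22 for Slc2a1 on the log2 scale, both above the median of 0.14 over all probes tested.

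**Figure D2:**
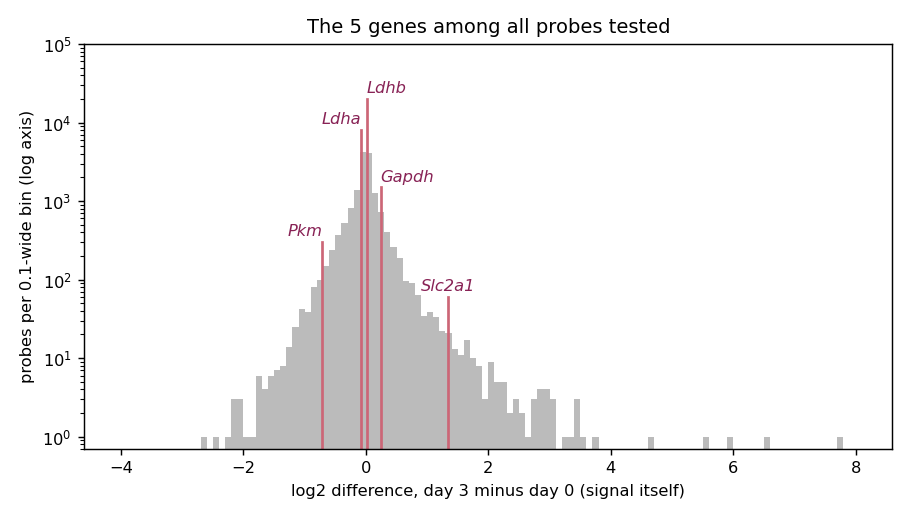
Histogram of the log2 difference, day 3 minus day 0, of 15445 probes tested (bins 0.1 wide, log count axis), with a red line at each of the 5 genes whose height has no meaning. Slc2a1 at 1.35 lies in the right tail and Pkm at -0.72 in the left flank, while Ldha, Ldhb and Gapdh lie between -0.08 and 0.24.

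Pkm, which encodes the pyruvate kinase of most tissues outside liver and red cells, had lower spot signals on each day 3 array. Its signal was 2826, 3754 and 2907 at day 0 and 1603, 1657 and 1300 at day 3. The groups did not overlap (3163 ± 514 against 1520 ± 193, SD, n = 3 each). After normalisation day 3 stood at 0.61 of day 0, a log2 difference of -0.72 (SE 0.22, 95% interval -1.27 to -0.16), and it was not called (adjusted p = 0.249, limma). The difference was -0.40, -0.55 and -1.20 in pairs 1, 2 and the unnumbered pair, so the unnumbered pair showed it most. Its sign was the same in all 21 alternatives, between -1.03 and -0.22, and none of them made the call (adjusted p 0.0539 to 0.990, limma). Which of the known splice forms of Pkm the probe reads was not analysed here.

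Gapdh was the brightest of the 5 spots, and its direction depended on the scaling. The spot signal was 19490, 19100 and 11443 at day 0 and 15488, 11634 and 11623 at day 3. The groups overlapped, since the unnumbered day 0 array was the dimmest of all 6. Quantile normalisation turned this into a log2 difference of 0.24 (SE 0.12, 95% interval -0.06 to 0.54, adjusted p = 0.508, limma), while median scaling gave -0.13, 75th percentile scaling -0.053 and no scaling -0.34. The submitters' scaled values put day 0 at 8924 ± 2549 and day 3 at 8697 ± 1515 (SD, n = 3 each), a log2 difference of -0.0097. The interval of the normalised value spans 0.956-fold to 1.46-fold, and a shift of this reference gene within that range was not resolved by the unblocked fit. Within pairs the normalised difference was positive each time (0.16, 0.29 and 0.27). A replicate block made of these pairs gave an SE of 0.044 and a 95% interval of 0.11 to 0.37, above 0, but Gapdh was still not called (adjusted p = 0.133, limma).

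The lactate dehydrogenase subunits did not differ beyond the spread of the arrays once normalised. Ldha, the subunit of muscle-type enzyme, read 11019, 9426 and 7199 at day 0 and 7153, 5598 and 5478 at day 3. These spot signals only just fail to overlap, between the unnumbered day 0 array and day 3 number 1. How many of all probes are apart on spot signals was not computed. Normalised values did overlap, with a log2 difference of -0.08 (SE 0.11, 95% interval -0.36 to 0.19, adjusted p = 0.894, limma), or 0.780-fold to 1.14-fold. The Ldha difference was larger with other scalings, at -0.38 with median scaling, -0.30 with 75th percentile scaling, -0.59 with no scaling (adjusted p = 0.213, limma) and -0.26 in the submitters' values, and none of these was called. Ldhb, the subunit of heart-type enzyme, read 9454, 6728 and 4524 at day 0 and 5176, 4150 and 4945 at day 3. The day 3 arrays lay within the range of day 0 except for number 2, which was lowest. The log2 difference was 0.01 (SE 0.14, 95% interval -0.34 to 0.37, adjusted p = 0.992, limma), or 0.787-fold to 1.29-fold, and it was -0.27 with median scaling, -0.19 with 75th percentile scaling and -0.48 with no scaling. The fold ranges given for both subunits hold for quantile-normalised values only.

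**Figure D3:**
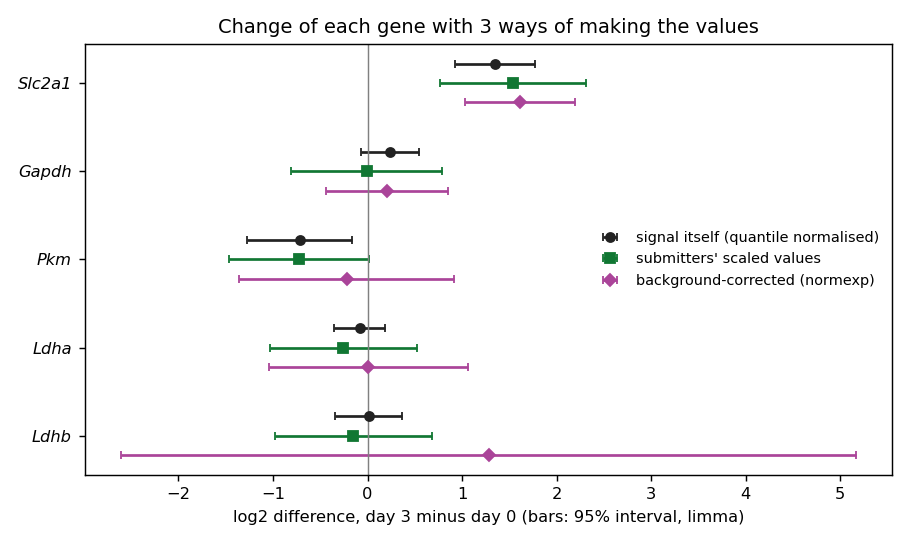
Log2 difference, day 3 minus day 0, of each gene (points) with its 95% interval (bars, limma, 3 arrays a group) for the signal itself, the submitters' scaled values and the values corrected with the deposited background column. Only Slc2a1 has all 3 intervals above 0 (points at 1.35, 1.54 and 1.62), and the interval of the background-corrected Ldhb runs from -2.60 to 5.16.

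The background column deposited beside the spots bears unequally on these genes. For Gapdh it amounted to 9.48% to 34.6% of the spot signal over the 6 arrays, and for Slc2a1 to 9.94% to 39.8%. For Pkm it was 63.6% to 86.6%, although the Pkm spot is dimmer than that of Gapdh. The Ldha spots had 32.3% to 73.2%. Ldhb stood out: the background was 89.7%, 90.5% and 103% of its signal at day 0 and 92.2%, 95.5% and 54.0% at day 3, so that on the unnumbered day 0 array it exceeded the signal. Across the gene spots of an array the share had a median of 65.2% to 78.7%, and the background followed the spot's own signal (Spearman correlation 0.917 to 0.968 across gene spots, a description without a p). The submitters' scaled values do not use this column: on each array they are a straight line of the spot signal, with the mean of the blank spots taken off.

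**Figure D4:**
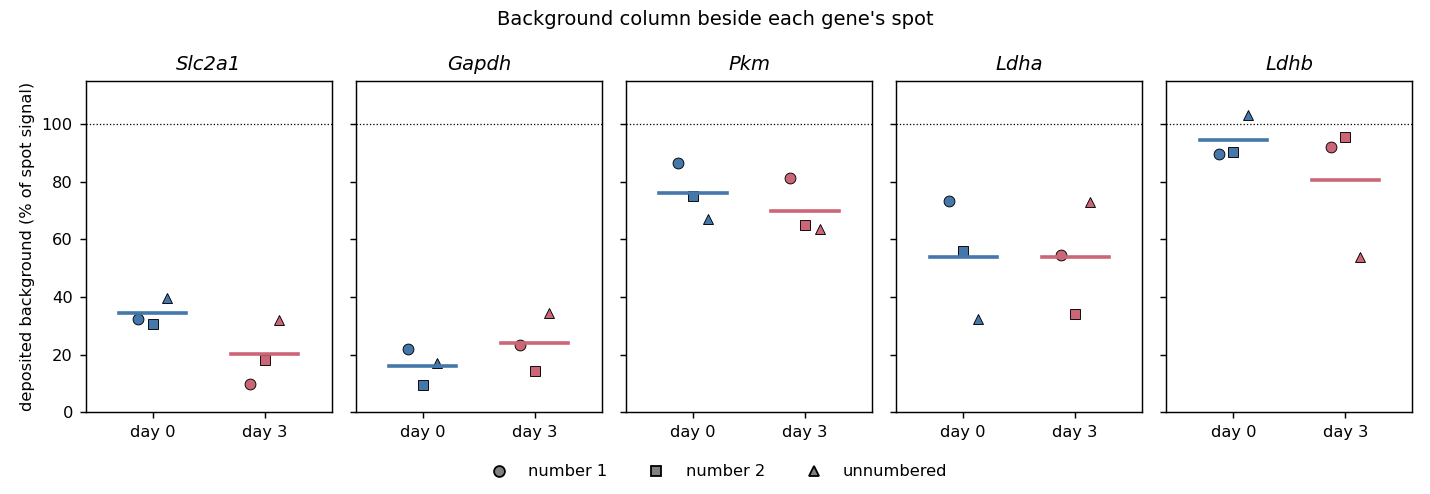
Deposited background as a percentage of the spot signal for the 5 genes, by day and array, with the group mean as a line and a dotted line at 100%. Ldhb lies close to or above 100% (89.7% to 103%) on 5 of 6 arrays and at 54.0% on the unnumbered day 3 array, while Gapdh and Slc2a1 stay below 40%.

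Correcting with that column (normexp, offset 50) ended the Slc2a1 call and spread the values of Ldhb. Slc2a1 differed by 1.62 (SE 0.22, adjusted p = 0.224, limma) and its groups still did not overlap. No member was called, beside 0.0324% of all probes, and 1 member (Slc2a1) had an unadjusted limma p under 0.05, as did 1127 of all probes (7.30%). Pkm was at -0.22 (SE 0.44, adjusted p = 0.990, limma), Gapdh at 0.21 (SE 0.25, adjusted p = 0.968) and Ldha at 0.0055 (SE 0.41, adjusted p = 0.999). Ldhb was at 1.28 (SE 1.50, adjusted p = 0.967, limma), which came from opposite pairs: -0.90 and -1.13 in the numbered pairs and 5.86 in the unnumbered pair.

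A ratio of 2 probes on the same array is nearly free of a constant that scales that array, but not of quantile normalisation, which treats bright and dim probes differently. Its change between days shows unequal change of the 2 probes. The level of such a ratio is not an amount of transcript. Of 5 ratios compared on quantile-normalised values, 3 did not overlap between groups: against Gapdh, Slc2a1 was higher at day 3 and Pkm and Ldha were lower. All 3 have Gapdh as denominator, and Slc2a1 and Pkm were already apart by themselves. How often ratios of other probes to Gapdh are apart was not computed, so this count carries little weight. Log2 Slc2a1 to Gapdh went from -4.99 ± 0.13 to -3.88 ± 0.38 between the days (SD, n = 3 each), a shift of 1.11. For Pkm to Gapdh it was -2.22 ± 0.41 and -3.18 ± 0.17, a shift of -0.96. For Ldha to Gapdh it was -0.78 ± 0.16 and -1.11 ± 0.05, a shift of -0.32. Each of these had an exact two-sided permutation p of 0.1, the smallest that 3 against 3 allows (0.167 after Benjamini-Hochberg over 5 ratios), so none could pass 0.05. Their signs were the same in all 15 alternatives in which ratios were recomputed, but their sizes were not. With no scaling the shifts were 1.43 for Slc2a1, -0.69 for Pkm and -0.25 for Ldha against Gapdh. With normexp on the background column they were 1.41, -0.43 and -0.20 in that order, and of the 5 ratios only Slc2a1 to Gapdh then had groups apart.

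**Figure D5:**
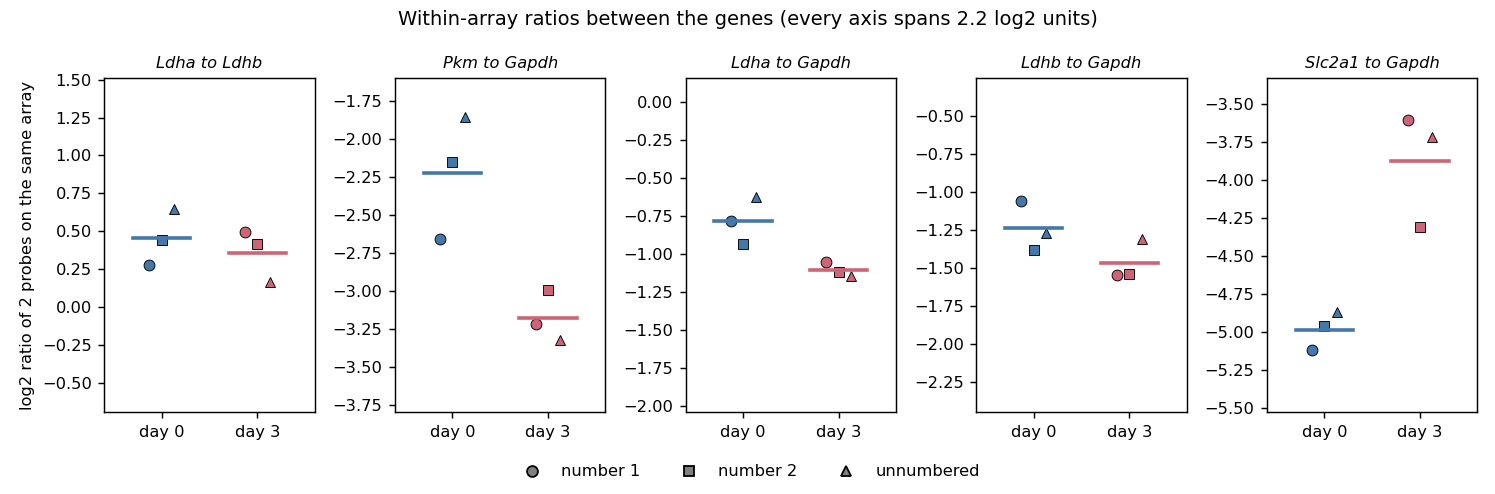
Log2 ratio of 2 probes on the same array (normalised values, every axis 2.2 log2 units tall), by day and array, with a line at the mean of 3 arrays. Slc2a1 to Gapdh is higher at day 3 on all arrays, Pkm to Gapdh and Ldha to Gapdh are lower, and the days overlap for Ldha to Ldhb and Ldhb to Gapdh.

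The balance of the lactate dehydrogenase subunits did not separate the days. Log2 Ldha to Ldhb was 0.28, 0.44 and 0.65 at day 0 and 0.50, 0.42 and 0.16 at day 3. The groups overlapped, with means of 0.46 ± 0.18 and 0.36 ± 0.17 (SD, n = 3) and an exact two-sided permutation p of 0.5. The difference of -0.10 was 0.10 in the numbered arrays alone and -1.27 with normexp on the background column, where the groups overlapped as well. Ldhb to Gapdh shifted by -0.23 with overlapping groups (exact permutation p = 0.2, adjusted 0.25).

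The 5 genes did not share one pattern over the arrays. Between members, Pearson correlations of normalised values over the 6 arrays ran from -0.84 (Slc2a1 with Pkm) to 0.64 (Slc2a1 with Gapdh). These describe 6 arrays that share 2 groups and one scaling and carry no p. Ldha and Ldhb correlated with 0.41, which placed Ldhb at rank 3419 of 15444 probes by likeness to Ldha. The probe most like Slc2a1 was ENSRNOG00000002303 (r = 0.996 over 6 arrays). It was picked for this likeness over the same arrays, so its difference follows from the choice and has no test here. Its spots read 23.9 ± 0.81 at day 0 and 74.4 ± 10.1 at day 3 (SD, n = 3), a log2 difference of 0.85 on normalised values. It was 1 of 94 probes with r above 0.95. Most like Pkm was ENSRNOG00000021725 (r = 0.995 over 6 arrays), picked in the same way, with 87.6 ± 6.75 at day 0 and 60.1 ± 6.52 at day 3 (SD, n = 3) and a log2 difference of -0.17.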

How the data were processed

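Single-colour arrays (Cy5) were made from 6 RNA samples, 3 per group, by a Toray protocol, per the labels. Per the file headers, each of 27456 spots has a median intensity and a background intensity that the authors deposited in scanner units, read at 3 gains. The deposited table of scaled intensity values was found, by setting it against the spot signals, to be the signal less the mean of the blank spots, scaled to a median of 25 per array (largest residual 5.3e-06).

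The members and lists were chosen with earlier results of these data known. That also holds for the choice to leave the background column out of the main values, because it follows the signal of the spot. Values were log2(signal + 50), quantile normalised over gene spots. A probe was tested if above the limit (mean plus 2 SD of the blank spots without the top and bottom 5%) on all arrays of a group. The days were compared by limma 3.58.1 (lmFit, eBayes; R 4.3.3) without a block, with Benjamini-Hochberg adjustment over 15445 probes. Blocks of replicate or of title style were alternatives, and Slc2a1 was not called with either (adjusted p = 0.0882 and 0.0570, limma). The fit was run on simulated data with noise drawn independently for each array, which cannot check the p-values where arrays are correlated. Whether the arrays of a group stand for separate cultures is not stated in the labels, so the p-values rest on a spread that may be technical, and the number of arrays limits the precision. Deviations from group means correlated by 0.27, 0.48 and 0.60 in pairs 1, 2 and the unnumbered pair, each above a bound of 0.1. With normexp on the background column these correlations were 0.088, 0.14 and 0.24, the first under that bound. Other matchings of the arrays were not compared, so the check cannot show that arrays of the same number belong together. No label states a pairing, and the pairs were used as an alternative block only. All members, and per direction the probe most like the member with the largest difference, were named by rule. The pathway and cell marker lists need symbols and were not used here. The promoter windows are from RefSeq (GRCr8), and 5 of 5 members matched by symbol. Alternatives varied the background, offset, scaling, filter on dim probes, eBayes options and blocks, or dropped arrays. Figures were drawn with matplotlib 3.10.9.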

Additional observations from a re-analysis of the deposited data

How the results depend on the processing

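Slc2a1 had the same sign in all 21 alternatives, but its call (log2 difference 1.35) was lost with normexp on the background column (1.62, and the same with the replicate block added), plain subtraction (1.90), median scaling (1.28), 75th percentile scaling (1.35), no scaling (1.09), the numbered arrays alone (1.31), no filter, the replicate block and title style as a block (1.35 in each), and without each array (1.20 to 1.50). In all of these the number of members called was 0 in place of 1 (limma). The replicate block changed no call of another member. Pkm (-0.72) had the same sign and no call in all 21 alternatives, and was -0.88 to -0.56 with an array left out.

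The sign of the uncalled members was less stable. Gapdh turned from 0.24 to -0.13 with median scaling, -0.053 with the 75th percentile, -0.34 with no scaling and -0.0097 in the submitters' values, and was 0.14 to 0.32 with an array left out. Ldhb turned from 0.01 to -0.27, -0.19, -0.48 and -0.15 in the same order and to -0.10 in the numbered arrays alone (-0.10 to 0.15 with an array left out). Ldha turned from -0.08 to 0.0055 with normexp on the background column, with or without the replicate block, and 0.0037 with plain subtraction (-0.14 to 0.018 with an array left out), and was -0.38 with median scaling, -0.30 with the 75th percentile, -0.59 with no scaling and -0.26 in the submitters' values. Of the ratios, Ldhb to Gapdh (-0.23) became 1.07 with normexp on the background column and 2.76 with plain subtraction. Ldha to Ldhb (-0.10) became -1.27 with normexp on the background column, -2.97 with plain subtraction and 0.10 in the numbered arrays alone and ran from -0.19 to 0.0010 with an array left out. For all these turns the cause was not tested. The 2 members with groups apart became 1 with normexp on that column, with or without the replicate block, and with plain subtraction. They became 3 with no scaling, in the numbered arrays alone, and without day 0 number 1 or the unnumbered day 3 array. Groups of fewer arrays separate more easily, and the share of all probes apart was not computed in these settings. The change in this count is therefore not a result about the members.

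Over all probes, the 112 rises and 49 falls became 4 and 1 with normexp on the background column, 24 and 1 with plain subtraction, 72 and 87 with no scaling, 274 and 79 in the submitters' values, and 294 and 97 with trend and robust eBayes. Median scaling gave 71 rises, no filter 64 and title style as a block 114 falls. Both were 0 in the numbered arrays alone (limma; 2009 probes at an unadjusted p under 0.05) and with normexp on the background column plus the replicate block (1348 probes). With 1 array dropped there were 0 to 75 rises and 1 to 18 falls. The fit of the submitters' values leaves out values they list as null, of which the members have none.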
